A study of Homo sapiens with 12 samples.

Results

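The genes described here encode the enzymes that build cholesterol and fatty acids, together with the factors that control them. They number 31 of the 57820 genes listed and were chosen by symbol, for their place in the pathway. The choice was made with earlier results of these data known. The sterol branch holds 18 genes: ACAT2, HMGCS1, MVK, PMVK, MVD, IDI1 and FDPS of the mevalonate part, and FDFT1, SQLE, LSS, CYP51A1, TM7SF2, MSMO1, NSDHL, HSD17B7, EBP, SC5D and DHCR7 from squalene to cholesterol. The fatty acid branch holds 8 genes, with ACLY, ACSS2, ACACA and FASN in the supply and synthesis part and ELOVL6, SCD, FADS1 and FADS2 in the elongation and desaturation part. The remaining 5 are the regulators SREBF1, SREBF2, SCAP and INSIG1 and the sterol carrier STARD4. All 31 were found and passed the filters on low values in each comparison.

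Poly(A) RNA was sequenced in 12 libraries from 2 established human squamous carcinoma cell lines. BICR31, from a head and neck tumour, had received a small interfering RNA against the transcription factor KLF5 (siKLF5) or the control siNC, with 3 libraries (A, B and C) each. HCC95, from a lung tumour, expressed from a vector the mutant KLF5 E419Q or the wild-type protein (KLF5 WT), or carried the empty vector, with 2 libraries (A and B) each. KLF5 is a zinc-finger protein of epithelial cells, and the residue changed in E419Q lies in its DNA-binding part. The sequence of the interfering RNA, the promoter of the vector, the time of harvest and the clonality of the HCC95 lines are not stated in the sources used here. Whether libraries with the same treatment were grown as separate cultures is not stated; p-values therefore reflect the library-to-library spread seen here, which could be technical.

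Cholesterol and fatty acids are both made from cytosolic acetyl-CoA, which ACLY releases from citrate and ACSS2 makes from acetate. SREBF1 and SREBF2 encode membrane-bound transcription factors that SCAP carries from the endoplasmic reticulum to the Golgi, where proteases free their active part. INSIG1 holds SCAP back when sterols are plentiful, and it is itself a target of these factors. The SREBF2 product acts mainly on sterol genes and the short SREBF1 product mainly on fatty acid genes, and both work at promoters together with NF-Y, which binds CCAAT, and Sp1, which binds GC boxes.

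RefSeq promoter sequences (build GRCh38.p14) matched 27 of the 31 genes by symbol, all but ACAT2, FDFT1, SQLE and FASN. In the 250 bases before an annotated start, counting matches on both strands and any start of a gene, CCAAT was found in 20 of the 27 genes (74.1%), against 42.3% of the 9169 matched genes that were tested in HCC95 and 32.0% of all 35116 promoters. The GC box GGGCGG was found in 26 of 27 (96.3%), against 76.0% of the tested genes. A sterol element of the form TCACNCCAC was found in 1 of 27, SREBF2, against 1.15% of the tested genes, and the E-box CACGTG in 3 of 27 (11.1%), against 11.3%. These matches describe letters, not binding. Shown here are the windows of SREBF2, of HMGCS1, MVD and MSMO1, sterol genes that were raised both by siKLF5 and by WT, and of FADS2, the fatty acid gene with the largest rise under siKLF5. Capitals mark matches to CCAAT on either strand (ATTGG is its reverse complement) and, in SREBF2, the match to TCACNCCAC, which starts 133 bases before the gene's start. No marked match overlapped another of these motifs. They lie at chr22:41832855-41833104 (plus strand, SREBF2), chr5:43313413-43313662 (minus, HMGCS1), chr16:88663092-88663341 (minus, MVD), chr4:165327419-165327668 (plus, MSMO1) and chr11:61816154-61816403 (plus, FADS2).
SREBF2: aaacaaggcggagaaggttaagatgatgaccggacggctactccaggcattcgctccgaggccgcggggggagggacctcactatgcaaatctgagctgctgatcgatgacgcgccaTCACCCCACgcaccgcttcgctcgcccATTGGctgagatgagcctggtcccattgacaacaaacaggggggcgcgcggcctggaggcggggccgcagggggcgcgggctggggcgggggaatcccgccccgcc
HMGCS1: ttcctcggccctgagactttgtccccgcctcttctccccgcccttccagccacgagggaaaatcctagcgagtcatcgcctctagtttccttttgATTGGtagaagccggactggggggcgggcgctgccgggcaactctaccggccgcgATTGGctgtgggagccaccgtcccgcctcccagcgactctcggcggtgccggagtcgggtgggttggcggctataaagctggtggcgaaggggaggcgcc
MVD: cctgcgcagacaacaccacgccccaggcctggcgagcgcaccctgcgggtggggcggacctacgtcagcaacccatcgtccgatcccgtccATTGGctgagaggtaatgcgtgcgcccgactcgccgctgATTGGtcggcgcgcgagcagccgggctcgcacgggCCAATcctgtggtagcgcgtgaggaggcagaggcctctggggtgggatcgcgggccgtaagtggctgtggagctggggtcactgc
MSMO1: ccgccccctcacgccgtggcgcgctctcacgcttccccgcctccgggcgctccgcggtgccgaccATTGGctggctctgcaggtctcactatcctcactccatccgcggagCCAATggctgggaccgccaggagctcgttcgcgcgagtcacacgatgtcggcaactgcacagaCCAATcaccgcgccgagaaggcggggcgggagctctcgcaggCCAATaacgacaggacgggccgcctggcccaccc
FADS2: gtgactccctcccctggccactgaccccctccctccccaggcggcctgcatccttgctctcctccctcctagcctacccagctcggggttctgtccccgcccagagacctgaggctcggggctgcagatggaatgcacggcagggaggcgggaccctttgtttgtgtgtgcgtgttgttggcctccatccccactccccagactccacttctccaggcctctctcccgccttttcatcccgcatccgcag
MSMO1 had 4 CCAAT matches in this window, MVD 3, HMGCS1 2 and SREBF2 1, while the printed FADS2 window had none. The window of another annotated start of HMGCS1, not printed (chr5:43313182-43313431), had none either.

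Estimated depth was 2150783 to 2296191 counts in siKLF5 libraries, against 1922358 to 1934361 in siNC libraries, and HCC95 libraries held 3074139 to 4643792 counts. KLF5 stood at 986, 1008 and 882 units of the deposited signal with siKLF5, against 2682, 2289 and 2620 units with siNC. In HCC95 it stood at 427 and 442 CPM (counts relative to the library total) with E419Q and 420.0 and 404 CPM with WT, against 149.9 and 136 CPM with the empty vector. The 5 squamous markers KRT5, KRT14, KRT6A, TP63 and DSG3 were above 0 in all groups, with a summed level of 52810 to 54950 units with siKLF5 against 84730 to 87630 units with siNC. KRT5 made up most of that sum, and DSG3 went the other way, at 2787 to 3007 units with siKLF5 against 1600 to 1641 units with siNC. In HCC95 their sum was 12000 to 12620 CPM with E419Q and 17720 to 18360 CPM with WT, against 15470 to 15920 CPM with the empty vector, again mostly KRT5. Unlike the sum, TP63 and KRT14 were higher with E419Q than with the empty vector. TP63 stood at 475 to 550.1 CPM with E419Q and 708 to 751 CPM with WT, against 351 to 385 CPM with the empty vector. Also unlike the sum, KRT6A was lower with WT, at 475.6 to 495.3 CPM against 740.8 to 779.1 CPM with the empty vector. The 4 epithelial markers EPCAM, CDH1, KRT8 and KRT18 summed to 81190 to 84320 units with siKLF5 against 105500 to 111500 units with siNC, where KRT8 and KRT18 were lower and CDH1 higher in all siKLF5 libraries. In HCC95 they summed to 3898 to 4101 CPM with E419Q and 2517 to 2715 CPM with WT, against 2219 to 2299 CPM with the empty vector, and each of the 4 was higher in both E419Q libraries than in any other HCC95 library. The 4 did not move together with WT. KRT8 was higher than with the empty vector (1538 to 1677 against 1200 to 1243 CPM) and KRT18 overlapped it. EPCAM (252.5 to 260.2 against 276.5 to 286.8 CPM) and CDH1 (186.6 to 198.2 against 237.7 to 239.6 CPM) were lower with WT. Of 7 markers of immune, endothelial and stromal cells found in the files, 5 were above 0 with siKLF5 and 7 with siNC, with sums of 292 to 436 units with siKLF5 against 208 to 283 units with siNC and with DCN and LUM at 0 in every siKLF5 library. In HCC95 their sums were 2.68 to 3.58 CPM with E419Q and 1.25 to 2.84 CPM with WT, against 2.15 to 3.18 CPM with the empty vector, with LUM at 0 in all 6 libraries and PTPRC at 0 in all WT and empty vector libraries. The part of these differences in the results was not tested, and in bulk RNA fewer cells of a type and less RNA per cell cannot be told apart.

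Synthesis genes were mostly higher after silencing of KLF5 in BICR31 and also higher with extra wild-type KLF5 in HCC95, and E419Q raised fewer of them than WT did. With siKLF5, 17 of the 31 genes rose and 2 fell against siNC (limma, adjusted p under 0.05), while 26.1% of all 15710 genes changed, 15.3% up and 10.8% down. With WT, 24 rose and 1 fell against the empty vector (edgeR), while 22.9% of all 12933 genes changed, 10.8% up and 12.1% down. With E419Q, 14 rose and 1 fell against the same empty vector libraries, while 21.2% of all genes changed, 10.4% up and 10.8% down. Set against WT directly, E419Q had 1 of the 31 genes higher and 17 lower, while 8.0% of all genes differed, 4.41% up and 3.59% down. Since the 31 genes were chosen with earlier results known, these counts are descriptions and were not tested against the shares of all genes. Groups did not overlap for 24 of the 31 genes with siKLF5 (21 above, 3 below siNC), against 40.0% of all genes (22.4% and 17.5%), for 28 with WT (27 above, 1 below), against 61.0% (32.0% and 29.0%), and for 25 with E419Q (23 above, 2 below), against 58.9% (32.5% and 26.5%). Between E419Q and WT 28 did not overlap (3 above, 25 below), against 49.0% of all genes (27.1% and 21.9%). The median log2 fold change of the 31 genes was 0.35 with siKLF5, 0.48 with WT, 0.25 with E419Q and -0.27 between E419Q and WT, and over all genes tested it was 0.04 with siKLF5 and 0.00 in each HCC95 comparison. Scaling mattered for BICR31: raised genes made up 58.7% of all calls with the deposited scaling but 48.5% after quantile normalization, 50.1% after TMM scaling and 51.1% with edgeR on estimated counts, where 14 to 17 of the 31 genes were raised and 3 lowered. The E419Q counts fell when 1 library of a compared pair was left out, and so did the counts over all genes. With 1 library left out, the sterol median log2 fold change was 0.22 to 0.37 for E419Q against the empty vector. It was -0.44 to -0.26 for E419Q against WT. With DESeq2 in place of edgeR, 8 genes were raised with E419Q against the empty vector and 10 were lower than in WT.

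**Figure D1:**
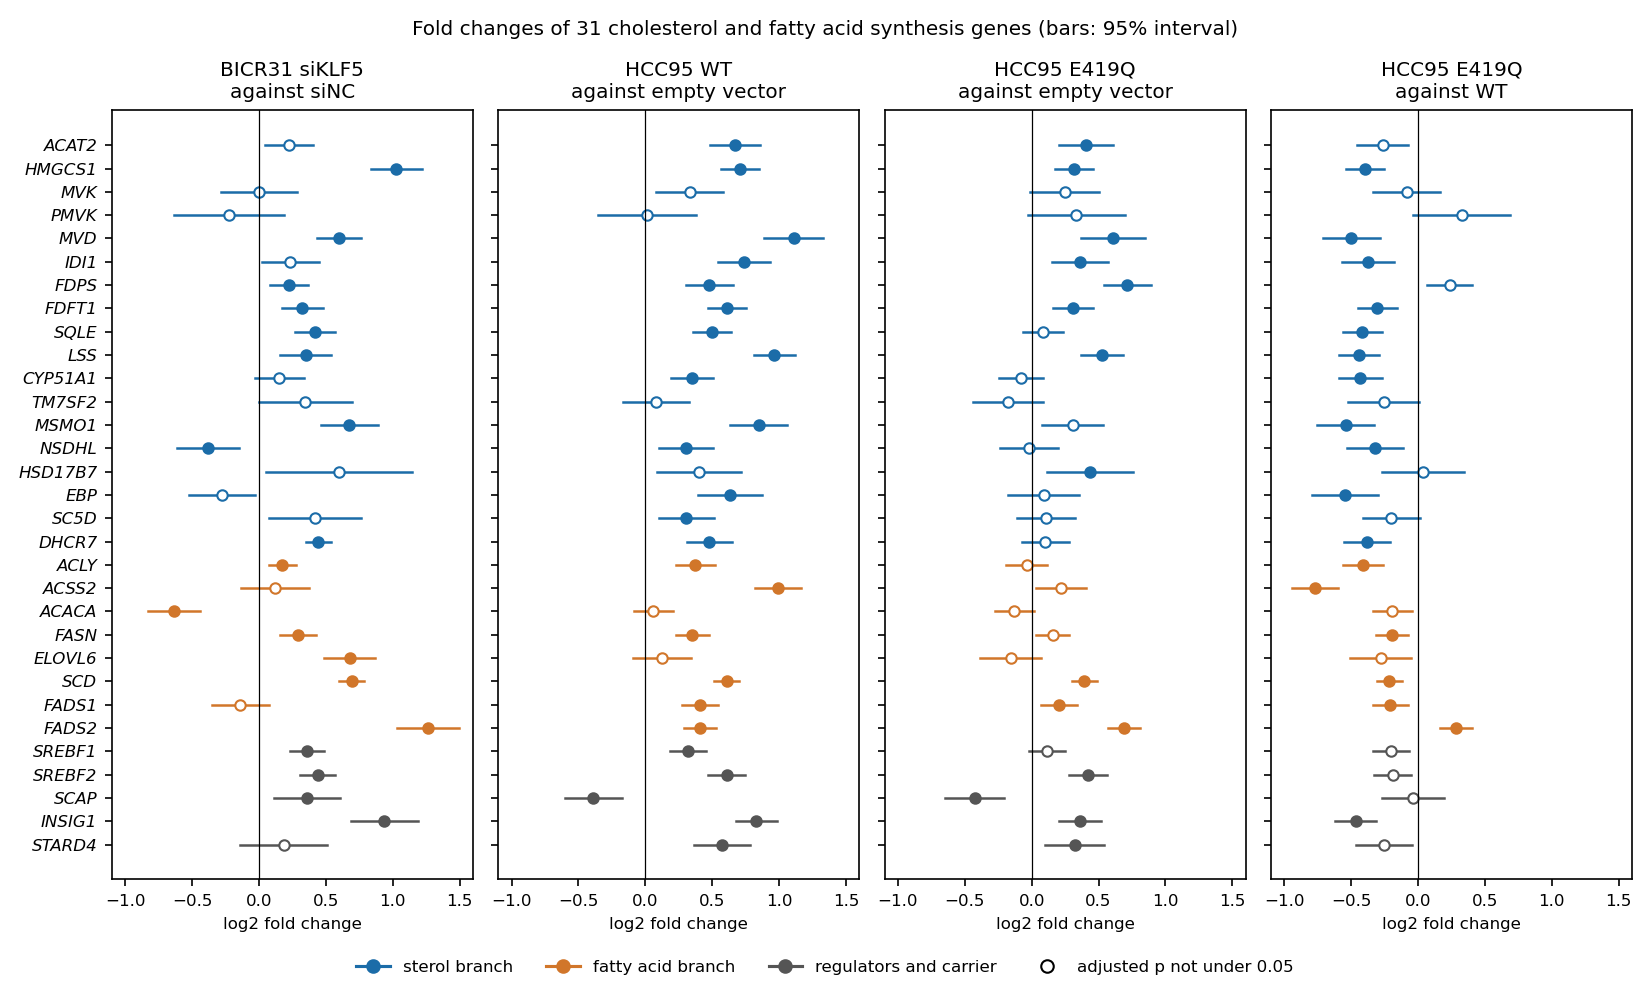
Log2 fold change (x axis) of each of the 31 genes (y axis) in the 4 comparisons, with points for the estimate, bars for its 95% interval and filled points for an adjusted p under 0.05. Most sterol branch genes lie right of 0 for siKLF5, WT and E419Q, and left of 0 for E419Q against WT.

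Among the regulators, SREBF2 and INSIG1 were raised in the 3 comparisons with a control, SREBF1 in those of siKLF5 and WT. SREBF2, the factor of the sterol genes, stood at 6184, 5282 and 5503 units with siKLF5, against 4189, 4211 and 4101 units with siNC. Every siKLF5 library lay above every siNC library, and the log2 fold change was 0.44 (95% interval 0.31 to 0.57, limma adjusted p = 5.36e-05). In HCC95 SREBF2 stood at 271 and 264 CPM with E419Q and 314 and 289 CPM with WT, against 196 and 195 CPM with the empty vector. Both overexpressing groups lay above the empty vector, by a log2 fold change of 0.42 for E419Q (edgeR, SE 0.0683, adjusted p = 9.57e-05) and 0.61 for WT (edgeR, SE 0.0666, adjusted p = 6.03e-07). SREBF1, the factor of the fatty acid genes, had 4100, 4142 and 4181 units with siKLF5, against 3100, 3331 and 3255 units with siNC, a log2 fold change of 0.36 (limma, SE 0.0601, adjusted p = 0.000243). Its HCC95 levels were 339 and 339 CPM with E419Q and 375 and 396 CPM with WT, against 289 and 323 CPM with the empty vector. The WT difference passed the test, at 0.32 on the log2 scale (edgeR, SE 0.0645, adjusted p = 0.000958), and the E419Q difference of 0.11 did not (95% interval -0.02 to 0.25, edgeR adjusted p = 0.242).

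INSIG1 had the largest rise of the regulators in BICR31, with 2112, 1733 and 1551 units with siKLF5, against 1064, 912 and 831 units with siNC. The groups did not overlap, and the log2 fold change was 0.94 (limma, SE 0.1196, adjusted p = 1.58e-05). In HCC95 INSIG1 stood at 243 and 215 CPM with E419Q and 323 and 301 CPM with WT, against 179 and 169 CPM with the empty vector. It was 0.83 higher on the log2 scale with WT (edgeR, SE 0.0728, adjusted p = 2.41e-08) and 0.36 higher with E419Q (edgeR, SE 0.0762, adjusted p = 0.00127), but the E419Q call was lost without E419Q library A (adjusted p = 0.0573). SCAP, the escort protein, went the other way in HCC95. It fell by 0.39 on the log2 scale with WT (edgeR adjusted p = 0.008) and by 0.43 with E419Q (edgeR adjusted p = 0.00515), while it rose by 0.36 with siKLF5 (limma adjusted p = 0.0302). All 3 SCAP calls were weak: that of siKLF5 was lost without each of 5 libraries (adjusted p 0.0569 to 0.111), after quantile normalization (0.0608) and after TMM scaling (0.0587). That of WT was lost without empty vector library B (0.0586), without WT library A (0.0758) and with DESeq2 (0.121), and that of E419Q without E419Q library A (0.118) and with DESeq2 (0.105). STARD4, which moves cholesterol between membranes, rose by 0.58 with WT (edgeR adjusted p = 0.000241) and by 0.32 with E419Q (edgeR adjusted p = 0.0355), and its difference of 0.18 with siKLF5 did not pass the test. With DESeq2 its E419Q rise was not called (adjusted p = 0.308). The E419Q call of STARD4 was lost without E419Q library A (0.102), E419Q library B (0.208) or empty vector library B (0.387).

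The mevalonate part of the sterol branch turns acetyl-CoA into farnesyl diphosphate. Of its 7 genes, 3 rose with siKLF5, 5 with WT and 5 with E419Q, and none fell. HMGCS1, which makes HMG-CoA, rose most with siKLF5 among the sterol genes, at 5215, 5458 and 5308 units with siKLF5 against 3064, 2197 and 2647 units with siNC. That is a fold change of 2.04 (95% interval 1.79 to 2.33, limma adjusted p = 2.27e-07), and the siNC libraries varied more than the siKLF5 libraries. In HCC95 HMGCS1 stood at 1228 and 1091 CPM with E419Q and 1634 and 1377 CPM with WT, against 937 and 890 CPM with the empty vector. Its log2 fold change was 0.71 with WT (edgeR, SE 0.0683, adjusted p = 1.03e-07) and 0.31 with E419Q (edgeR, SE 0.0690, adjusted p = 0.00193). The E419Q call was lost with DESeq2 (adjusted p = 0.109) and without E419Q library A, where the difference was 0.22.

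MVD, the decarboxylase that yields isopentenyl diphosphate, had the largest rise of all 31 genes with WT. It stood at 63.8 and 65.7 CPM with E419Q and 95.5 and 85.7 CPM with WT, against 44.9 and 39.0 CPM with the empty vector. The 3 groups did not overlap, and the log2 fold change was 1.11 with WT (edgeR, SE 0.106, adjusted p = 9.18e-08) and 0.61 with E419Q (edgeR, SE 0.115, adjusted p = 0.000479). In BICR31 MVD had 2021, 2058 and 2079 units with siKLF5, against 1309, 1368 and 1391 units with siNC (log2 fold change 0.60, SE 0.0794, limma adjusted p = 2.49e-05). FDPS, the farnesyl diphosphate synthase, was the sterol gene with the largest rise under E419Q, with 278 and 241 CPM with E419Q and 229.7 and 206 CPM with WT, against 143 and 165 CPM with the empty vector. Its log2 fold change was 0.71 with E419Q (edgeR, SE 0.0848, adjusted p = 1.60e-06) and 0.48 with WT (edgeR, SE 0.0850, adjusted p = 0.000253). With siKLF5 FDPS rose by 0.22 (limma adjusted p = 0.0218), a call lost after quantile normalization (adjusted p = 0.104), after TMM scaling (0.0658), and without siKLF5 library A (0.0768), siKLF5 library C (0.0778) or siNC library C (0.106).

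ACAT2, which condenses acetyl-CoA, rose by 0.67 on the log2 scale with WT and by 0.40 with E419Q, and IDI1, the isomerase, rose by 0.74 with WT and by 0.36 with E419Q. Without E419Q library A the E419Q calls of ACAT2 (adjusted p = 0.0701) and IDI1 (0.204) were lost, and that of IDI1 also without empty vector library B (0.136). With DESeq2 the E419Q calls of ACAT2 (adjusted p = 0.0725) and IDI1 (0.112) were lost too. In BICR31 ACAT2 differed by 0.22 (limma adjusted p = 0.0662) and IDI1 by 0.24 on the log2 scale, both short of the threshold. The kinases MVK and PMVK passed no test in any comparison, with log2 fold changes from -0.22 to 0.33. MVK under WT was closest, at 0.33 (95% interval 0.08 to 0.58, edgeR adjusted p = 0.0507). Exons of ACAT2 share 397 bases with TCP1 and 1106 with SOD2 on the other strand in GENCODE 29, and the sources used here do not say whether counting used strand, so reads there cannot be told apart. Of the 31 genes, 13 share exon bases with a gene of the other strand, 4 of them with a protein-coding gene (ACAT2, MVK, FADS1 and FADS2).

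Of 11 genes from squalene to cholesterol, 5 rose and 1 fell with siKLF5, 9 rose with WT, and 3 rose with E419Q. LSS, which closes squalene epoxide into lanosterol, rose by 0.96 on the log2 scale with WT (edgeR, SE 0.0731, adjusted p = 2.67e-09) and by 0.52 with E419Q (edgeR, SE 0.0762, adjusted p = 2.44e-05). Its levels were 252 and 239.8 CPM with E419Q and 352 and 307 CPM with WT, against 170.5 and 165 CPM with the empty vector, so the 3 groups were apart. In BICR31 LSS had 1619, 1433 and 1591 units with siKLF5, against 1182, 1249 and 1211 units with siNC (log2 fold change 0.35, SE 0.0897, limma adjusted p = 0.00791). FDFT1, the squalene synthase, stood at 394 and 348 CPM with E419Q and 478 and 427 CPM with WT, against 292 and 294 CPM with the empty vector. It rose by 0.61 with WT (edgeR adjusted p = 9.74e-07), by 0.31 with E419Q (edgeR adjusted p = 0.00298, but 0.104 without E419Q library A) and by 0.32 with siKLF5 (limma adjusted p = 0.00304).

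SQLE, the squalene epoxidase, and DHCR7, which makes cholesterol in the final reduction of its route, rose with siKLF5 and with WT and passed no test with E419Q. SQLE had 2925, 2825 and 2709 units with siKLF5, against 2145, 2097 and 2078 units with siNC (log2 fold change 0.42, limma adjusted p = 0.000224). In HCC95 it stood at 266 and 246 CPM with E419Q and 355 and 319 CPM with WT, against 243 and 231 CPM with the empty vector, a log2 fold change of 0.50 with WT (edgeR adjusted p = 1.39e-05) and 0.08 with E419Q (95% interval -0.07 to 0.23). DHCR7 had 13155, 12750 and 13323 units with siKLF5, against 9200, 9848 and 9828 units with siNC. The BICR31 groups were far apart relative to their spread, with a log2 fold change of 0.44 (limma, SE 0.0442, adjusted p = 1.02e-06). Its HCC95 levels were 398 and 333 CPM with E419Q and 513 and 426 CPM with WT, against 343 and 325 CPM with the empty vector (log2 fold change 0.48 with WT, edgeR adjusted p = 0.000167, and 0.10 with E419Q, adjusted p = 0.441).

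MSMO1, the sterol methyl oxidase, had 1454, 1358 and 1331 units with siKLF5, against 909, 793 and 894 units with siNC, and 88.5 and 78.5 CPM with E419Q and 132 and 108 CPM with WT, against 67.1 and 65.0 CPM with the empty vector. It rose by 0.68 with siKLF5 (limma adjusted p = 7.72e-05) and by 0.85 with WT (edgeR adjusted p = 2.25e-06), and its E419Q difference of 0.31 missed the threshold (edgeR adjusted p = 0.0519). CYP51A1, the lanosterol demethylase, stood at 352 and 299 CPM with E419Q and 458 and 408 CPM with WT, against 357 and 319 CPM with the empty vector. Only the WT difference of 0.35 passed the test against the empty vector (edgeR adjusted p = 0.00187), and it was lost without WT library A (0.0687). EBP, the sterol isomerase, rose by 0.63 with WT (edgeR adjusted p = 0.000352) and differed by -0.28 with siKLF5, short of the threshold.

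NSDHL, the dehydrogenase of the demethylation complex, fell by 0.38 on the log2 scale with siKLF5 (limma adjusted p = 0.0157) and rose by 0.30 with WT (edgeR adjusted p = 0.0256). Its siKLF5 call was lost without siKLF5 library B (0.0541), siKLF5 library C (0.0648) or siNC library B (0.0518), and its WT call without any 1 of the 4 WT and empty vector libraries (0.0513 to 0.124). SC5D, the desaturase, rose by 0.31 with WT (edgeR adjusted p = 0.0299) and lost the call without empty vector library B (0.319), WT library A (0.0657) or WT library B (0.21). HSD17B7, the ketosteroid reductase, rose by 0.44 with E419Q (edgeR adjusted p = 0.0472), a call lost without any 1 of the 6 HCC95 libraries (0.0523 to 0.247). DESeq2 did not call the WT rises of NSDHL (adjusted p = 0.261) and SC5D (0.268) or the E419Q rise of HSD17B7 (0.43). HSD17B7 has near-identical pseudogene copies, so its counts are uncertain. TM7SF2, a sterol reductase, passed no test, with log2 fold changes from -0.26 to 0.35.

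In the fatty acid branch the genes of supply and synthesis rose less and less uniformly. Of ACLY, ACSS2, ACACA and FASN, 2 rose and 1 fell with siKLF5, 3 rose with WT, and none passed the test with E419Q. ACSS2, the acetyl-CoA synthetase that uses acetate, had the largest difference between E419Q and WT of the 31 genes. It stood at 105 and 104 CPM with E419Q and 187 and 166 CPM with WT, against 89.7 and 86.4 CPM with the empty vector. The WT rise was 0.99 on the log2 scale (edgeR, SE 0.0830, adjusted p = 1.26e-08), and the E419Q difference of 0.22 missed the threshold (edgeR adjusted p = 0.0916). In BICR31 ACSS2 differed by 0.12 (95% interval -0.13 to 0.37, limma adjusted p = 0.509), with 715, 683 and 787 units with siKLF5 against 664, 702 and 641 units with siNC. These BICR31 groups overlapped.

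ACACA, the acetyl-CoA carboxylase that commits acetyl-CoA to fatty acids, was lower with siKLF5. Its libraries had 1520.1, 1242 and 1433 units with siKLF5, against 2145, 2316 and 2050.5 units with siNC, and the log2 fold change was -0.64 (limma, SE 0.0915, adjusted p = 5.50e-05). This fall remained called without each library in turn and under each other scaling tried. In HCC95 ACACA stood at 207 and 189 CPM with E419Q and 223 and 223 CPM with WT, against 206 and 217 CPM with the empty vector, and no comparison passed the test. FASN, the fatty acid synthase that uses the product of ACACA, rose by 0.29 with siKLF5 (limma adjusted p = 0.00271) and by 0.35 with WT (edgeR adjusted p = 0.000113). ACLY stood at 566 and 507 CPM with E419Q and 767 and 643 CPM with WT, against 527 and 551 CPM with the empty vector. It rose by 0.37 with WT (edgeR adjusted p = 0.000522), differed by -0.04 with E419Q (95% interval -0.19 to 0.11) and rose by 0.17 with siKLF5 (limma adjusted p = 0.0116), a call lost without siKLF5 library C (0.0616) or after TMM scaling (0.0686).

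With siKLF5 and with E419Q against the empty vector, elongation and desaturation genes held the largest rises of the branch, while with WT the rise of ACSS2 was larger. SCD, the stearoyl-CoA desaturase, was the member with the smallest adjusted p both with siKLF5 and with WT. It had 16516, 16125 and 15480 units with siKLF5, against 10300, 9538 and 9909 units with siNC, and 3130 and 3126 CPM with E419Q and 3651 and 3511 CPM with WT, against 2297 and 2364 CPM with the empty vector. The log2 fold change was 0.69 with siKLF5 (limma, SE 0.0440, adjusted p = 4.19e-09), 0.61 with WT (edgeR, SE 0.0453, adjusted p = 1.96e-09) and 0.39 with E419Q (edgeR, SE 0.0453, adjusted p = 1.00e-06). FADS2, the desaturase that starts the synthesis of polyunsaturated fatty acids, had the largest rise of all 31 genes with siKLF5, 2.40-fold (95% interval 2.05 to 2.82, limma adjusted p = 2.09e-07). Its levels were 1816, 1475 and 1764 units with siKLF5, against 636, 739 and 723 units with siNC. In HCC95 FADS2 stood at 1019 and 967 CPM with E419Q and 844 and 768 CPM with WT, against 602 and 604 CPM with the empty vector, so here E419Q was the highest group. The rise was 0.69 with E419Q (edgeR, SE 0.0573, adjusted p = 7.41e-09) and 0.41 with WT (edgeR, SE 0.0573, adjusted p = 1.71e-05).

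ELOVL6, which lengthens palmitate, had 1750.2, 1975 and 1795 units with siKLF5, against 1173, 1085 and 1192 units with siNC, a log2 fold change of 0.68 (limma, SE 0.0892, adjusted p = 2.28e-05). In HCC95 it stood at 73.5 and 66.0 CPM with E419Q and 87.3 and 79.9 CPM with WT, against 83.9 and 69.3 CPM with the empty vector. The empty vector libraries overlapped both other groups, while both E419Q libraries lay below both WT libraries (log2 fold change -0.28, edgeR adjusted p = 0.142). FADS1, the desaturase that acts after FADS2, rose by 0.41 with WT (edgeR adjusted p = 5.72e-05) and by 0.20 with E419Q (edgeR adjusted p = 0.0297), and differed by -0.14 with siKLF5 (limma adjusted p = 0.346). Its E419Q call was lost without any 1 of the 4 E419Q and empty vector libraries (0.0502 to 0.249). DESeq2 did not call the E419Q rise of FADS1 either (adjusted p = 0.187). FADS1 and FADS2 share 142 exon bases on opposite strands.

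**Figure D2:**
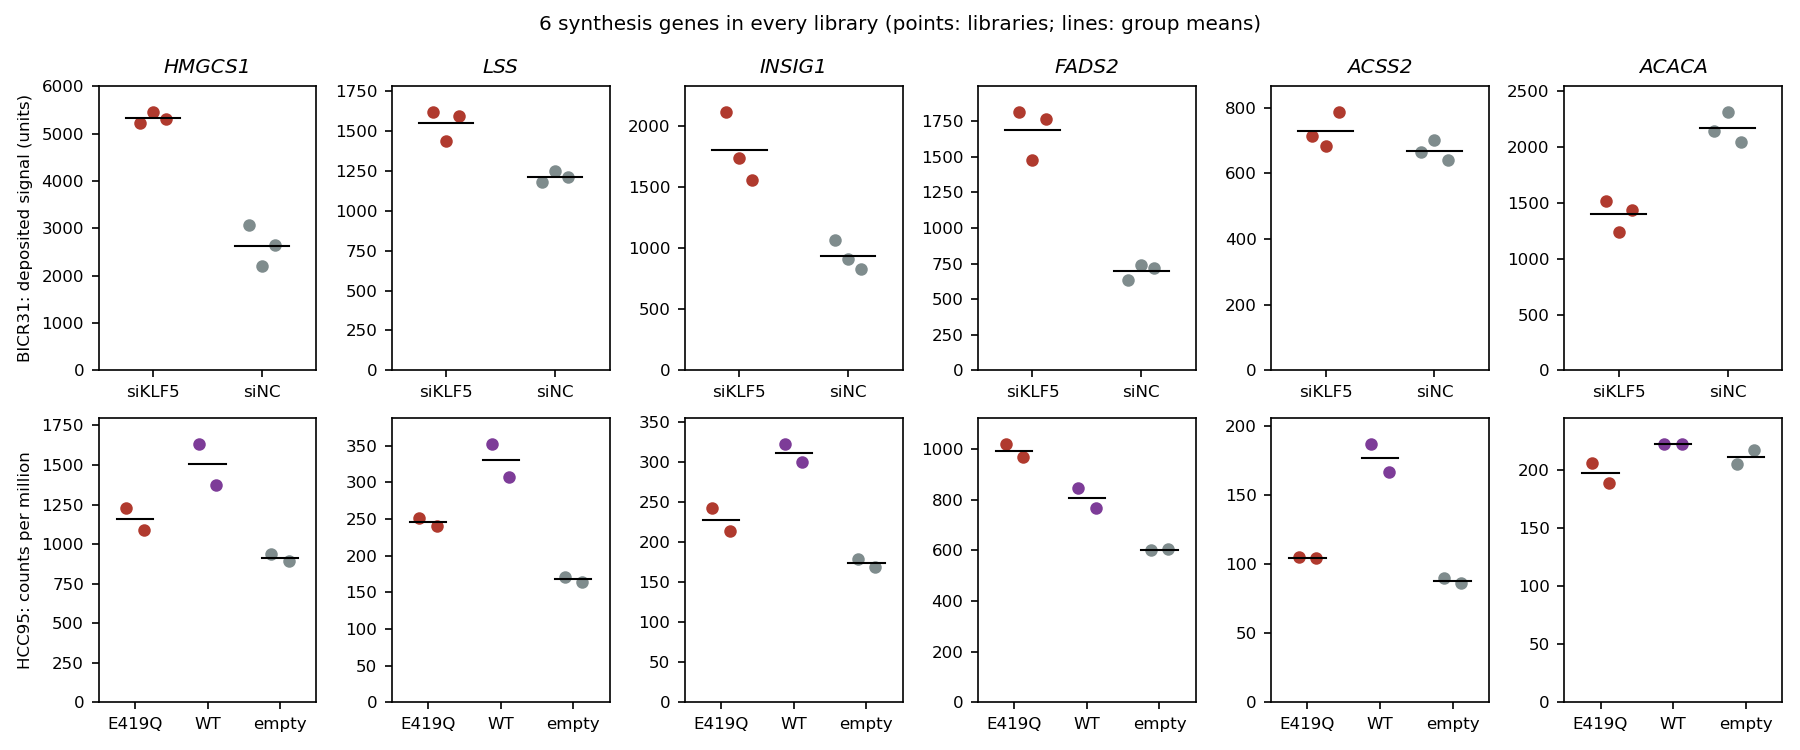
Levels of 6 genes in every library, as deposited signal (units) in BICR31 (top row) and CPM in HCC95 (bottom row), with points for libraries and lines for group means. HMGCS1, INSIG1 and FADS2 were higher with siKLF5 than with siNC in each library and ACACA lower, while ACSS2 stood clearly higher with WT alone.

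Side by side, the sterol branch held the larger median shift in the comparisons with a control. Its median log2 fold change was 0.33 with siKLF5, 0.49 with WT and 0.31 with E419Q, and that of the fatty acid branch was 0.23 with siKLF5, 0.39 with WT and 0.18 with E419Q. The share of genes called did not follow this order: 8 of 18 sterol genes rose and 1 fell with siKLF5, against 5 of 8 and 1 of 8 in the fatty acid branch, while with WT 14 of 18 and 6 of 8 rose. With E419Q 8 of 18 sterol and 3 of 8 fatty acid genes rose. Within the sterol branch E419Q raised 5 of 7 mevalonate genes (median 0.36) and 3 of 11 later genes (median 0.10). Within the fatty acid branch it raised 0 of 4 supply and synthesis genes (median 0.06) and 3 of 4 elongation and desaturation genes (median 0.30). These counts were fragile. With DESeq2 the E419Q calls of ACAT2, HMGCS1, IDI1, HSD17B7 and FADS1 were lost. Of the genes in both branches, only MVD, FDPS, LSS, SCD and FADS2 kept the E419Q call under every alternative run. The difference between the branches was not tested, since the genes were chosen with results known.

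Levels were also summed per transcript length. In BICR31 the 18 sterol genes summed to 23919, 22955 and 23295 units per kilobase with siKLF5, against 19108, 18476 and 18247 with siNC, and the 8 fatty acid genes to 10231, 10002 and 9772 with siKLF5, against 7544, 7664 and 7748 with siNC. Both sums were higher in every siKLF5 library. The sterol sum was 2.34, 2.30 and 2.38 times the fatty acid sum with siKLF5, against 2.53, 2.41 and 2.36 times with siNC, so the groups overlapped in this ratio. In HCC95 the sterol genes summed to 2785 and 2438 TPM, the deposited length-corrected abundance, with E419Q and 3328 and 2939 with WT, against 2226 and 2130 with the empty vector, and the fatty acid genes to 2470 and 2294 with E419Q and 2564 and 2384 with WT, against 1796 and 1871 with the empty vector. The ratio was 1.13 and 1.06 with E419Q and 1.30 and 1.23 with WT, against 1.24 and 1.14 with the empty vector. On the TPM scale E419Q thus had the lowest ratios and WT overlapped the empty vector, but this order was not kept in CPM. There the sterol genes summed to 3851 and 3440 with E419Q, 4869 and 4260 with WT and 3038 and 2924 with the empty vector. The fatty acid sums were 6395 and 6155 with E419Q, 7218 and 6753 with WT and 4861 and 5005 with the empty vector. In CPM the E419Q ratios overlapped those of the empty vector and the WT ratios lay above them. TPM also varied within pairs: ACACA had 75.3 and 50.6 TPM with E419Q, at 207 and 189 CPM. Library A of E419Q and of WT had the higher sterol sum of its pair.

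**Figure D3:**
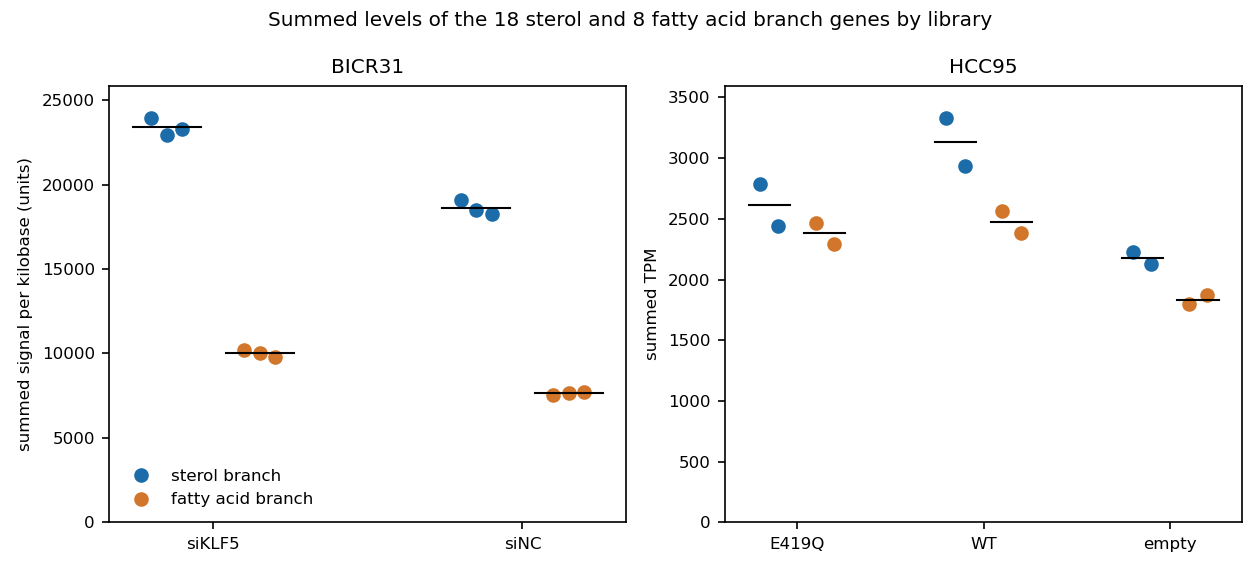
Summed level of the 18 sterol and the 8 fatty acid branch genes in each library, as signal per kilobase in BICR31 (left) and TPM in HCC95 (right), with lines for group means. Both sums stood higher with siKLF5 than with siNC, and higher with E419Q and with WT than with the empty vector.

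The comparisons of siKLF5 with siNC and of WT with the empty vector share no library and move KLF5 in opposite directions. Of the 31 genes, 15 rose in both: HMGCS1, MVD, FDPS, FDFT1, SQLE, LSS, MSMO1 and DHCR7 of the sterol branch, ACLY, FASN, SCD and FADS2 of the fatty acid branch, and SREBF1, SREBF2 and INSIG1. They were 88.2% of the 17 raised with siKLF5 and 62.5% of the 24 raised with WT. Of the 12415 genes tested in both, 274 rose in both (2.21%), which was 12.9% of those raised with siKLF5 and 20.3% of those raised with WT. Genes called in opposite directions were NSDHL, lower with siKLF5 and higher with WT, and SCAP, higher with siKLF5 and lower with WT. ACACA and ELOVL6 passed the test with siKLF5 and not with WT. ACAT2, IDI1, CYP51A1, EBP, SC5D, ACSS2, FADS1 and STARD4, 8 genes, passed it with WT and not with siKLF5. No difference between these comparisons was tested, and SC5D had a log2 fold change of 0.42 with siKLF5 (limma adjusted p = 0.0703) and 0.31 with WT (edgeR adjusted p = 0.0299). MVK, PMVK, TM7SF2 and HSD17B7 were called in neither. Across the 31 genes the log2 fold changes of both comparisons had Pearson's r = 0.30 (Spearman's rho 0.29), against -0.04 across all 12415 genes. Within the sterol branch r was 0.46 (n = 18) and within the fatty acid branch 0.17 (n = 8). These are descriptions across genes, which share libraries and are not independent replicates.

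**Figure D4:**
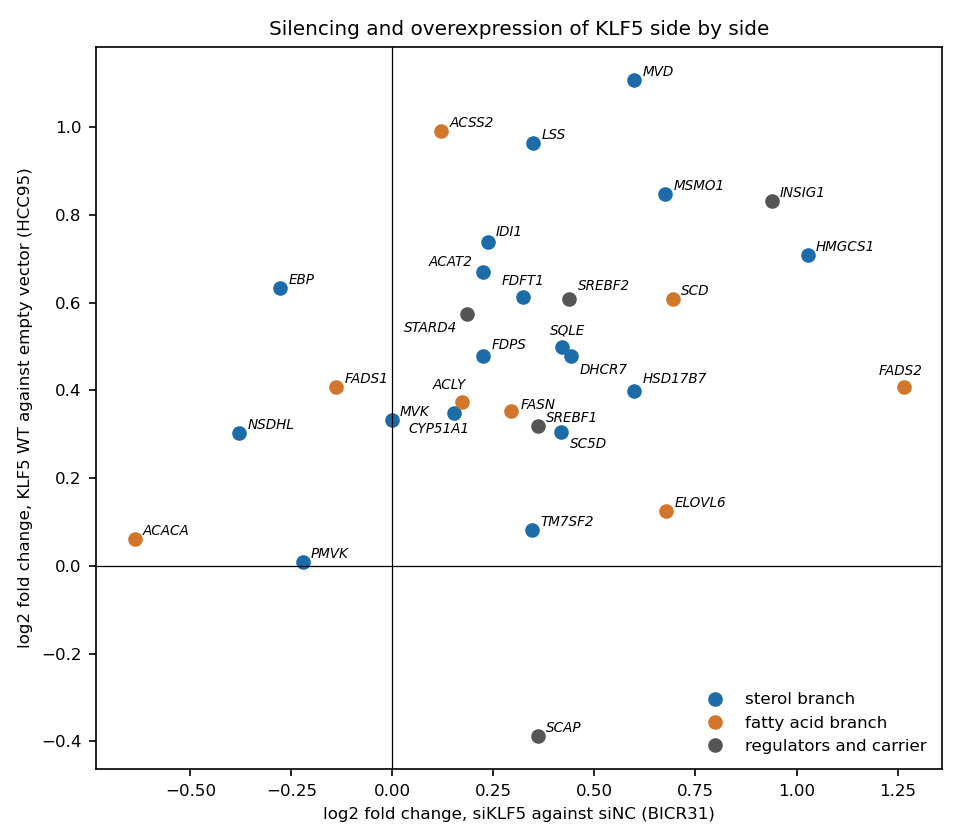
Log2 fold change of each of the 31 genes with siKLF5 against siNC in BICR31 (x axis) and with WT against the empty vector in HCC95 (y axis), coloured by branch. Most genes lie right of 0 and above 0, SCAP lies below 0 on the y axis, and ACACA lies farthest left.

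Synthesis genes were mostly lower with E419Q than with WT, while the KLF5 transcript itself differed by 0.06 on the log2 scale (95% interval -0.07 to 0.19, edgeR adjusted p = 0.683). Of the sterol genes 11 of 18 were lower with E419Q than with WT, of the fatty acid genes 5 of 8 were lower and 1 was higher, and of the 5 regulators 1 was lower. The largest difference was that of ACSS2, at -0.77 on the log2 scale (95% interval -0.95 to -0.60, edgeR adjusted p = 8.92e-07). INSIG1 differed by -0.47 (edgeR adjusted p = 0.000106), LSS by -0.44 (0.000189), SQLE by -0.42 (0.000268), HMGCS1 by -0.39 (0.000373) and ACLY by -0.41 (0.000438). These 6 calls remained without each library in turn. FADS2 was the gene that was higher with E419Q, by 0.28 (95% interval 0.17 to 0.40, edgeR adjusted p = 0.00174), but the call was lost without E419Q library A (0.0593) or WT library B (0.0886). FDPS differed by 0.24, short of the threshold. SREBF2, by -0.19, and SREBF1, by -0.20 (edgeR adjusted p = 0.0581), did not pass the test either. SREBF1 did pass without empty vector library A (edgeR adjusted p = 0.0253), without empty vector library B (0.0271), without a filter on low counts (0.0262) and in a fit of only these 4 libraries (0.0289).

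The other 11 genes lower with E419Q than with WT each lost the call without at least 1 library. Without E419Q library B this held for CYP51A1 (difference -0.43, adjusted p = 0.0576 without the library), MSMO1 (-0.54, 0.0564), DHCR7 (-0.38, 0.181), EBP (-0.54, 0.058), IDI1 (-0.38, 0.256), FDFT1 (-0.30, 0.185), FASN (-0.20, 0.384), FADS1 (-0.21, 0.366) and NSDHL (-0.32, 0.253). Without WT library A it held for MVD (-0.50, 0.0564), SCD (-0.21, 0.0638), DHCR7 (0.174), EBP (0.142), IDI1 (0.183), FDFT1 (0.161), FASN (0.413), FADS1 (0.217) and NSDHL (0.201). EBP was also lost without E419Q library A (0.0543), and FADS1 and NSDHL without E419Q library A (0.0809 and 0.171) or WT library B (0.167 and 0.174). With DESeq2 the calls of MVD (adjusted p = 0.0755), EBP (0.0834), DHCR7 (0.235), IDI1 (0.159), FASN (0.142), FADS1 (0.334) and NSDHL (0.602) were lost. Both libraries whose omission cost most calls lay at the outer ends of the sterol sums, E419Q B the lower of its pair and WT A the higher.

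The order of levels differed between the lines. On the TPM scale SCD was the most abundant of the 31 genes in each HCC95 group, at 867 ± 6.27 TPM with E419Q and 980 ± 22.4 TPM with WT, against 653 ± 19.0 TPM with the empty vector (SD, n = 2). HMGCS1 and FADS2 followed in each group, and with the empty vector these did not differ beyond their spread (436 ± 22.4 and 398 ± 34.7 TPM). In BICR31, on the scale of signal per kilobase, DHCR7 came first, at 6705 ± 151 units with siKLF5 against 4936 ± 189 units with siNC (SD, n = 3), followed by FDPS at 3996 ± 127 units with siKLF5 against 3425 ± 215 units with siNC. FADS2 ranked 25 of 31 with siNC and 15 of 31 with siKLF5, and 3 of 31 in the empty vector libraries of HCC95. The BICR31 values were divided by HCC95 transcript lengths and the tables were normalized separately, so only orders within a line are compared. On these scales HSD17B7 came last in BICR31, and in HCC95 SCAP came last with E419Q (26.7 ± 1.11 TPM) and with WT (23.1 ± 1.31 TPM) and PMVK with the empty vector (25.2 ± 6.06 TPM; SD, n = 2). The smallest group means of counts were those of HSD17B7 in BICR31 (14 to 32 estimated counts per library) and PMVK in HCC95 (55 to 103 counts), where small differences were not detectable at this depth.

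The lists of genes around the pathway were also drawn up with results known. Over all genes tested, 26.1% were called with siKLF5, 21.2% with E419Q and 22.9% with WT. Of 11 genes of SREBP processing, 3 rose and 2 fell with siKLF5, 0 rose and 1 fell with E419Q, and 1 rose and 2 fell with WT. That was 45.5% of the list with siKLF5, 9.09% with E419Q and 27.3% with WT. MBTPS1, the protease that makes the initial cut in the SREBF products, had 4478, 4217 and 4842 units with siKLF5, against 2145, 1878 and 1680 units with siNC (2.38-fold, limma adjusted p = 1.03e-08). Its WT rise was 0.27 on the log2 scale (edgeR adjusted p = 0.0349). Of 14 tested genes of sterol transport and esterification, 4 rose and 4 fell with siKLF5 (57.1% called). Of 13 tested in HCC95, 1 rose and 3 fell with E419Q (30.8%) and 4 rose and 2 fell with WT (46.2%). CAV1, the caveolar coat protein that binds cholesterol, was lower with siKLF5, at 3533, 3808 and 3346 units against 11527, 10988 and 11102 units with siNC (log2 fold change -1.65, limma adjusted p = 5.63e-12). It was also lower with E419Q, at 1042 and 886 CPM, than with WT, at 1626 and 1613 CPM (log2 fold change -0.77, edgeR adjusted p = 6.16e-09), or with the empty vector, at 1556 and 1528 CPM (log2 fold change -0.71, edgeR adjusted p = 1.04e-08).

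Of 8 LXR targets and receptors, genes that answer to sterol excess, 2 rose with siKLF5, 2 rose and 3 fell with E419Q, and 0 passed the test with WT. ABCA1, the cholesterol exporter, had 682, 733 and 583 units with siKLF5, against 182, 228 and 235 units with siNC (3.10-fold, limma adjusted p = 1.96e-06). In HCC95 ABCA1 was near the detection limit, with 15 and 14 counts with E419Q and 5 and 8 with WT, against 3 and 4 with the empty vector. Only the E419Q libraries carried ABCA1 past the filter on low counts. Its E419Q call, included in the 2 rises above, is therefore no support for a difference. ABCG1, another exporter, stood at 60.8 and 66.0 CPM with E419Q and 30.7 and 25.3 CPM with WT, against 34.4 and 29.3 CPM with the empty vector. It was 2.25-fold higher with E419Q than with WT (edgeR adjusted p = 1.50e-06). SLC25A1, the mitochondrial citrate exporter that feeds ACLY, rose by 0.33 with siKLF5 (limma adjusted p = 0.0116), by 0.55 with E419Q (edgeR adjusted p = 0.000822) and by 0.62 with WT (edgeR adjusted p = 0.00018).

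Lipid users showed a mixed picture. ACSL1, which activates long-chain fatty acids, rose by 0.72 with siKLF5 (limma adjusted p = 2.02e-05) and by 0.85 with WT (edgeR adjusted p = 0.000242), and was lower with E419Q than with WT by 0.90 (edgeR adjusted p = 0.000446). LPIN1, the phosphatidate phosphatase, rose by 0.91 with siKLF5 (limma adjusted p = 0.000487) and by 0.74 with WT (edgeR adjusted p = 0.000345). Of 15 genes of elongation and activation outside the 31, 5 rose and 2 fell with siKLF5, and of 14 tested in HCC95, 0 rose and 2 fell with E419Q and 3 rose and 2 fell with WT. Of 12 genes of the isoprenoid side branches, which draw on farnesyl diphosphate, 0 rose and 1 fell with siKLF5, 0 rose and 1 fell with E419Q, and 1 rose and 1 fell with WT. Of 11 genes of fatty acid oxidation, 2 rose and 1 fell with siKLF5, 2 rose with E419Q, and 1 rose with WT. Of 10 tested genes of glycerolipid synthesis, 4 rose and 1 fell with siKLF5, 0 rose and 2 fell with E419Q, and 1 rose and 2 fell with WT.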

How the data were processed

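Poly(A) RNA was measured in 12 libraries of 5 groups. The submitters' processing notes name STAR, RSEM and hg19 without versions, and for HCC95 add edgeR and limma. The deposited HCC95 tables give unscaled expected counts per gene and TPM from RSEM, per the file headers. The BICR31 files hold a deposited normalised signal, whose scaling by the authors is not stated in the sources used here; the 75th percentile of values above 0 was 983.3 to 992.1 units in each library. Dividing by the smallest step (7.87 to 9.12 units) made 81.7% to 82.7% of the values whole within 0.02, so counts per BICR31 library are estimates. Those totals limit the precision, and replicate pairs differed by more than counting noise (within-group chi-square over its degrees of freedom 1.24 to 1.83).

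BICR31 was tested with limma 3.58.1 (empirical Bayes with trend) on log2(signal + 1) for the 15710 genes whose mean reached 10 units, a scale that understates changes of low genes. HCC95 expected counts were rounded and tested with edgeR 4.0.16 (quasi-likelihood, TMM, filterByExpr, 12933 genes, 1 fit over all 6 libraries). Two-sided p-values were adjusted over all genes tested (Benjamini-Hochberg, threshold 0.05). CPM are counts over the library total, without the TMM factor that the fold changes use. Levels between genes are deposited TPM, or signal per kilobase of HCC95 effective length. Promoters came from RefSeq and exon overlaps from GENCODE 29; the files' own build is hg19, so no coordinates come from the files. The scripts were checked on simulated libraries. Across the 4 comparisons, 31.3% to 43.3% of simulated 1.5-fold changes and 80.6% to 89.6% of 2-fold changes were called. A true change of 1.5-fold or less could thus often go uncalled. R 4.3.3 and Python 3.11.15 were used.

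The 31 genes, the neighbouring lists and the markers were chosen with earlier results of these data known. Named with values per library are the called members with the smallest adjusted p, up to 8 a comparison, and SREBF1, SREBF2 and INSIG1; SQLE, CYP51A1, MSMO1, ACACA and ELOVL6 fall partly outside this rule and were given after their values were seen. Of each neighbouring list up to 3 called genes could be named. The counts of 1 neighbouring list are not reported here. Alternatives were other pseudocounts, filters, scalings, DESeq2 1.42.0, limma-voom, edgeR on estimated BICR31 counts, the replicate block, only the groups compared, and leaving out each library.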

Additional observations from a re-analysis of the deposited data

How the results depend on the processing

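No called synthesis gene and no branch median reversed its direction under any alternative run, but small balances over all genes did. With siKLF5 the median over all genes, 0.04, was -0.03 after quantile normalization, where 2005 genes were raised and 2129 lowered, and -0.01 both after TMM scaling and with edgeR on estimated counts. With E419Q, without E419Q library B, 822 genes were raised and 804 lowered, against 1340 and 1397 with all libraries. With siKLF5 the sterol median log2 fold change of 0.33 was 0.27 after quantile normalization and 0.29 after TMM scaling of the signal, and 0.28 to 0.34 with 1 library left out; the number of the 31 genes lowered was then 1 to 2. DESeq2 called fewer genes in HCC95: 508 raised and 642 lowered with WT, 573 and 596 with E419Q, and 270 and 197 between E419Q and WT, with 0 synthesis genes lowered with WT, 8 raised and 0 lowered with E419Q, and 10 lowered between E419Q and WT. Without a filter on low counts, 2 were higher with E419Q than with WT. Leaving out 1 library gave, with WT, 785 to 1322 genes raised and 934 to 1471 lowered, 0 to 1 synthesis genes lowered, and medians of 0.41 to 0.59 (sterol) and 0.31 to 0.45 (fatty acid). It gave, with E419Q, 822 to 1255 raised and 804 to 1348 lowered, 6 to 14 synthesis genes raised and 0 to 1 lowered, and a sterol median of 0.22 to 0.37. Between E419Q and WT it gave 341 to 637 raised and 249 to 536 lowered, and 8 to 18 synthesis genes lowered and 0 to 1 raised. The cause of these shifts was not tested.

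For single genes, the calls of 15 of 19 genes with siKLF5, 21 of 25 with WT, 6 of 15 with E419Q and 6 of 18 between E419Q and WT held under every alternative run. Replicate letters did not pair the libraries (correlation of same-letter deviations -0.03 to 0.03). A replicate block left 17 raised and 2 lowered synthesis genes with siKLF5, and ended the calls of HSD17B7 with E419Q (adjusted p = 0.0513) and of FADS1 (0.0545) and NSDHL (0.0603) between E419Q and WT; it ended no other member's call.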
